A study of Mus musculus with 6 samples.

Results

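The miR-151 hairpin yields a microRNA from each of its arms, mmu-miR-151-5p and mmu-miR-151-3p, and both were measured in mouse liver tumours and in the liver beside them. Both rows were chosen by their name in the deposited table, 2 of 695 mature microRNAs. No measured value entered that match, but the hairpin was put forward with earlier results of the same tumour and adjacent arrays in view, so its differences are given as a description of these arrays. The tumour group was 3 liver tumours and the adjacent group 3 pieces of normal-looking liver, each taken next to 1 of those tumours. All tissue came from C57BL/6J mice of 6 months that had received the vector AAV-Rian-CMV, 3E10 particles, through the superficial temporal vein on day 1 after birth, so the adjacent pieces carry the same vector exposure as the tumours and no group without the vector was analysed here. The vector is an adeno-associated virus built for gene targeting at the Rian locus. The numbers 1293, 1309 and 1316 link each tumour with its adjacent piece, are entered as mouse numbers and differ between the tumours. The tumour titled 1316 is, however, called 1306 in its source label.

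MicroRNAs are short RNAs cut from a hairpin transcript, and an Argonaute protein loads 1 arm to lower the messenger RNAs that the arm pairs with. The hairpin of miR-151 lies in an intron of Ptk2, the gene of focal adhesion kinase, which relays signals from cell attachment to migration and growth. RefSeq's mouse annotation (GRCm38.p6) places the gene Mir151 within Ptk2 and lists Ago2, which encodes an Argonaute protein, as a neighbouring protein-coding gene. In human hepatocellular carcinoma the region of PTK2 is often gained, and the 5p arm has been described there as raised and as promoting invasion of tumour cells together with focal adhesion kinase. That background comes from human tumours and is not a result of these mouse arrays.

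The hairpin is related to that of miR-28, which lies within Lpp in the annotation, and both derive from a LINE-2 transposable element. miR-708, within Tenm4, shares the seed of miR-28, and all 4 arms of these relatives were on the arrays. The mature sequences below, from RefSeq (GRCm38.p6, all on the plus strand), show the relatives whose values are set beside those of miR-151. Capitals mark the seed, bases 2 to 8, with which a microRNA pairs to its targets.
miR-28a-5p (row miR-28): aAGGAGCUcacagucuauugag
miR-28a-3p (row miR-28*): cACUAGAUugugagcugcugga
miR-708-5p (row miR-708): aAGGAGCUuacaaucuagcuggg
miR-708-3p (row miR-708*): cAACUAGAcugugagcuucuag
The 5p arms of miR-28 and miR-708 carry the same seed, AGGAGCU, and their 3p arms differ in theirs. The 5p arms of miR-151 and miR-28 have a stretch of bases in common, so that a probe for one may read some of the other. Whether it did so on these arrays was not tested.

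The 5p arm was bright in liver and lower in each tumour. On the deposited log2 scale, mmu-miR-151-5p was at 6.89 in tumour 1293, 8.13 in tumour 1309 and 7.72 in tumour 1316, against 8.46, 8.63 and 8.58 in the adjacent pieces of the same numbers. All 3 tumours lay below all 3 adjacent pieces, tumour 1293 was the lowest by a wide margin, and the adjacent pieces were close to each other. The level averaged 7.58 ± 0.63 in tumours and 8.56 ± 0.09 in adjacent liver (SD, n = 3 each). The difference, tumour minus adjacent, was -0.98 ± 0.30 (SE; 95% confidence interval -1.72 to -0.23), which places the tumour mean at 0.508 of the adjacent mean. Within the pairs the differences were -1.57, -0.50 and -0.87 in 1293, 1309 and 1316, or a spread of 0.54 (SD, n = 3 pairs) with the same sign in each. Limma's test, fitted to all 695 microRNAs, did not call it (unadjusted p = 0.018, Benjamini-Hochberg adjusted p = 0.15). The SE, interval and p-value take the same variance for both groups, although their SDs were 0.63 and 0.09. In bulk tissue, fewer cells that carry a microRNA and less of it per cell cannot be told apart.

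The 3p arm was dim in both tissues. Its row, mmu-miR-151-3p, was at 6.40 in tumour 1293, 6.16 in tumour 1309 and 6.28 in tumour 1316, against 6.23, 6.13 and 6.14 in the adjacent pieces. Tumour 1293, the lowest array for the 5p arm, was the highest for the 3p arm, and the groups overlapped. The means were 6.28 ± 0.12 in tumours and 6.17 ± 0.06 in adjacent liver (SD, n = 3 each), and the difference was 0.11 ± 0.08 (SE; 95% confidence interval -0.08 to 0.30; limma adjusted p = 0.56). The pair differences were 0.16, 0.03 and 0.14 in 1293, 1309 and 1316. Array medians ran from 6.39 to 6.44, and only 12.7% of the microRNAs had a lower mean over the 6 arrays than the 3p arm. Without detection calls it cannot be said whether this row lay above background, and a value at background would hide a change. The 5p arm had a higher mean over the 6 arrays than 92.9% of the microRNAs.

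**Figure D1:**
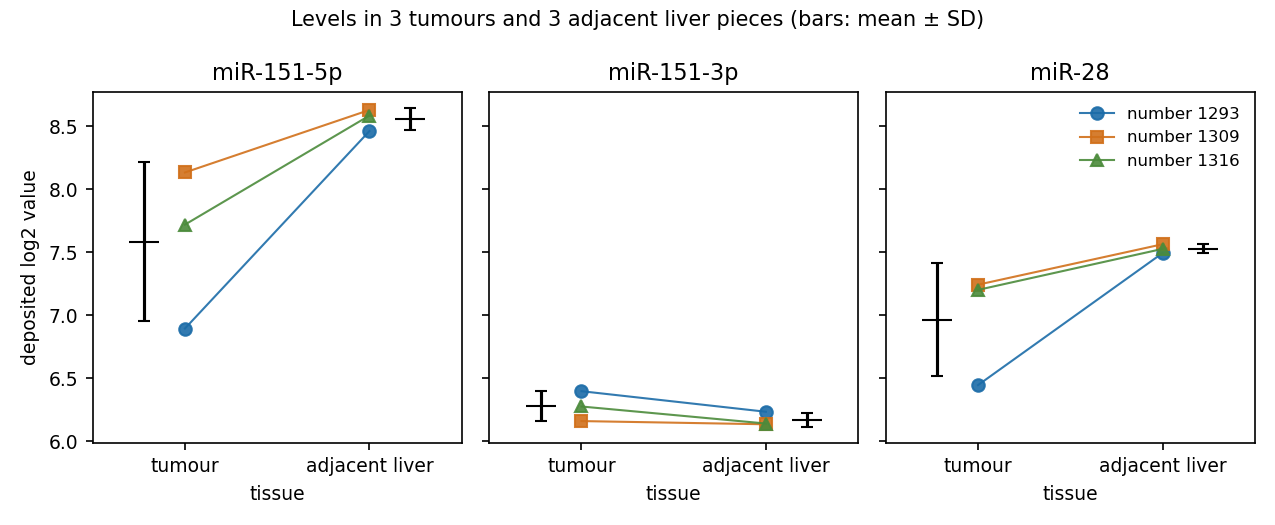
Deposited log2 values (vertical axis) of miR-151-5p, miR-151-3p and miR-28 in tumours and in adjacent liver (horizontal axis), with a point per array, lines joining tissue of the same number, and bars for the mean ± SD of 3 arrays. The 5p arm lies between 6.89 and 8.13 in tumours and between 8.46 and 8.63 in adjacent liver, while the 3p arm stays between 6.13 and 6.40 throughout.

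Of the 2 arms, 0 were called at an adjusted p of 0.05, where limma called 2.88% of all 695 microRNAs (20), 0.288% as lower in tumours and 2.59% as higher. At an unadjusted p below 0.05, 98 microRNAs were lower and 41 higher, the 5p arm among the lower ones. In the fit with a replicate block for the pair, 1.73% (12) were called by limma, and the 5p arm was again not among them (-0.98 ± 0.23, SE; adjusted p = 0.16). The separation of the groups seen for the 5p arm, with every tumour below every adjacent piece, was found for 22.9% of all microRNAs, so it is common on these arrays.

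The size of the 5p difference was among the most negative of the table. Only 3 of the 695 microRNAs had a more negative one, and these, named after their values were seen, were miR-101a (-1.19), miR-26a (-1.14) and miR-99a (-1.005). Limma called none of them (adjusted p = 0.15, 0.12 and 0.089). Lower means in tumours were frequent among bright microRNAs. Of the 174 brightest by their mean over all 6 arrays, at least 6.77, 75.9% had a lower mean in tumours, against 59.6% of all microRNAs, and 56.3% had every tumour below every adjacent piece. The median difference of these 174 was -0.29, against -0.03 over all microRNAs and -0.98 for the 5p arm.

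**Figure D2:**
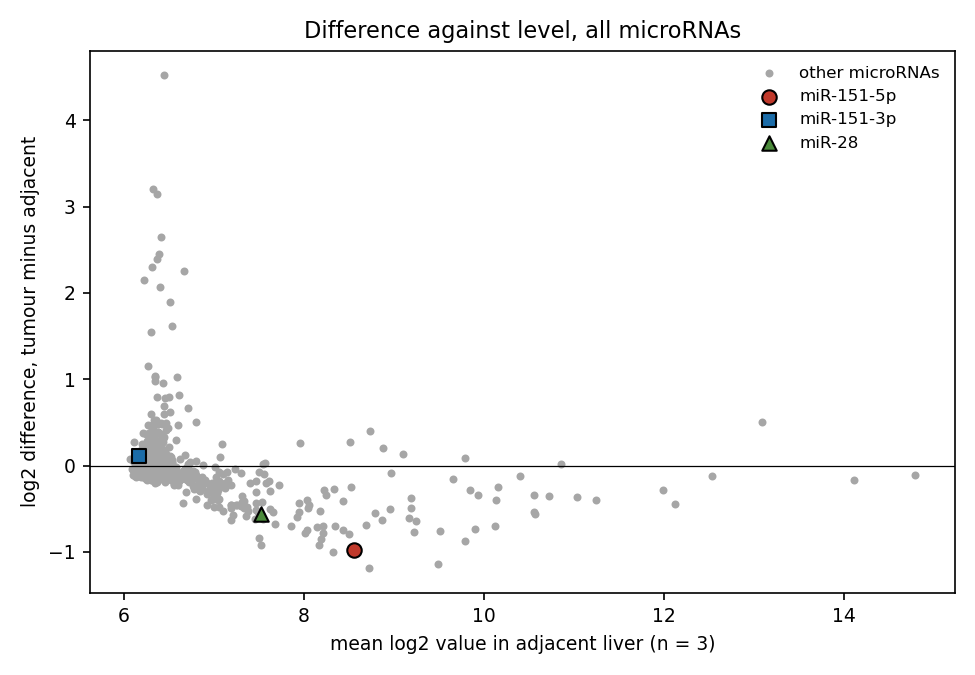
Log2 difference of each of the 695 microRNAs, tumour minus adjacent (vertical axis), against its mean log2 value in adjacent liver (horizontal axis, n = 3), with a point per microRNA. miR-151-5p, at 8.56 and -0.98, lies at the lower edge of the bright microRNAs, and miR-151-3p, at 6.17 and 0.11, lies in the dim crowd at the left.

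The tumours differed in how far the 5p arm lay below the adjacent liver. Its SD in tumours was 7.26-fold that in adjacent liver, and the ratio of the median SDs over all microRNAs was 2.85. For the 3p arm the ratio was 2.13. The wide spread in tumours was not particular to the 5p arm. The SDs in tumours and in adjacent liver were 0.78 and 0.06 for miR-101a and 0.65 and 0.06 for miR-26a. They were 0.44 and 0.05 for miR-99a and 0.45 and 0.04 for miR-28 (n = 3 each), beside 0.63 and 0.09 for the 5p arm. A larger SD among tumours than that of the 5p arm was found for 21 microRNAs. The tumours fell in the order 1309, 1316 and 1293 from high to low for the 5p arm, an order shared by 26.2% of all microRNAs and by 44.3% of those 174. Tumour 1293 stood apart across the table, and limma's array weights gave it 0.0715, against 1.08 and 1.47 for tumours 1309 and 1316 and 1.98 to 2.13 for the adjacent pieces. Without tumour 1293 the 5p arm was at -0.63 ± 0.12 (SE) and was called lower (limma adjusted p = 0.019), but the number of microRNAs called then was 136 in place of 20. It was also called without tumour 1309 (-1.25 ± 0.25, SE; limma adjusted p = 0.046), where 58 were called. Without pair 1293 it was at -0.68 and was not called (limma adjusted p = 0.069).

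**Figure D3:**
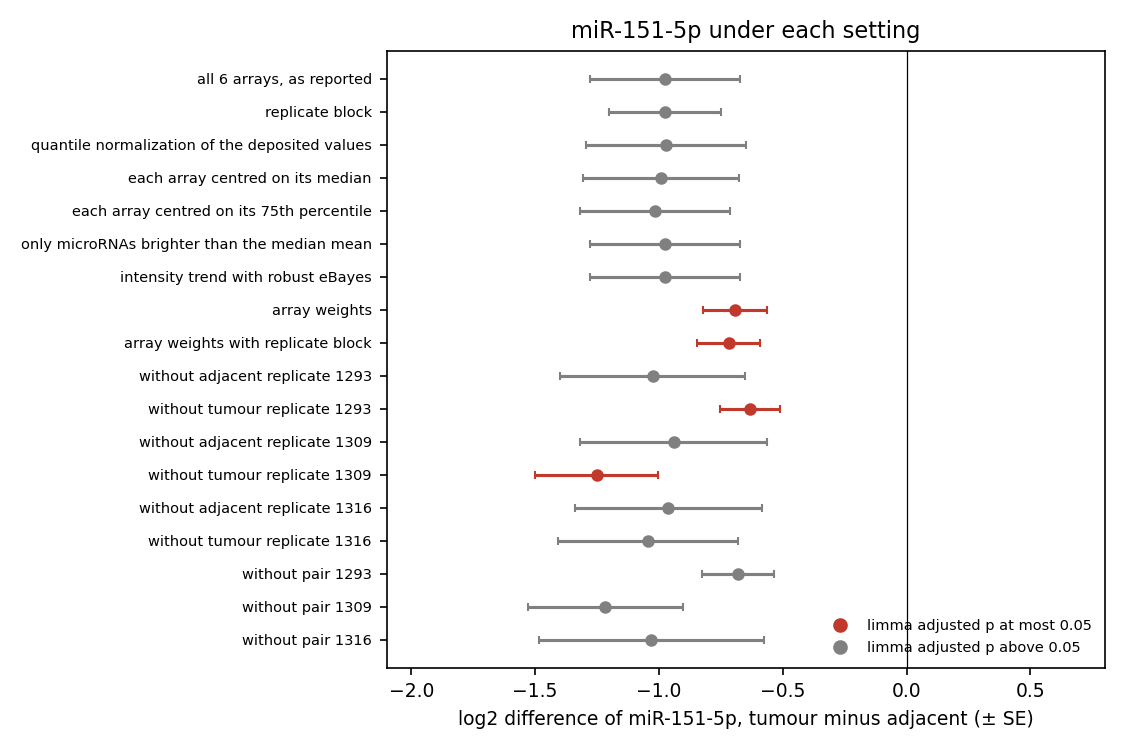
Log2 difference of miR-151-5p, tumour minus adjacent, with its SE (horizontal axis) in the fit of all 6 arrays and under 17 alternative settings (vertical axis). Every setting gave a lower mean in tumours, between -1.25 and -0.63, and 4 of the 17, in red, passed limma's adjusted p of 0.05.

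A second question was whether the arms of the hairpin differed in their change. The value compared was the 3p minus the 5p level within each array, in which any array effect common to both arms drops out. It was -0.50, -1.97 and -1.44 in tumours 1293, 1309 and 1316, against -2.23, -2.49 and -2.44 in their adjacent pieces. All 3 tumours lay above all 3 adjacent pieces, with tumour 1293 farthest away. The change of this balance, tumour minus adjacent, was 1.08 ± 0.36 (SE; 95% confidence interval 0.22 to 1.95), and the pair values were 1.73, 0.52 and 1.001. Limma, fitted to the 159 hairpins with both arms in the table, did not call it (unadjusted p = 0.021, adjusted p = 0.21), and called 3.77% of those hairpins (6). Groups that did not overlap, in either direction, were found for 32.1% of the hairpins.

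The group means of the 3p row, 6.28 and 6.17, lay below the lowest array median, 6.39, and the row may be at background. In tumour 1293 the row, at 6.40, was within the range of the array medians. The change of the balance largely restates the difference of the 5p arm, -0.98, beside 0.11 for the 3p arm. The median size of the change was 0.21 over the 159 hairpins. Ordered by size, the hairpin next above miR-151 was miR-1894 (-1.12 ± 0.90, SE) and the next below was let-7d (1.07 ± 0.76), and in both the change came mostly from pair 1293, with -3.32 and 3.02. In miR-151 the other pairs, 1309 and 1316, also moved by 0.52 and 1.001. Arms whose mean differences had opposite signs were found in 67 of the 159 hairpins, and in 46 the first arm (5p or unstarred) was lower and the second (3p or star) higher, as here. Without tumour 1293 the balance changed by 0.68 (limma adjusted p = 0.020) and without tumour 1309 by 1.42 (adjusted p = 0.041), both of them calls.

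**Figure D4:**
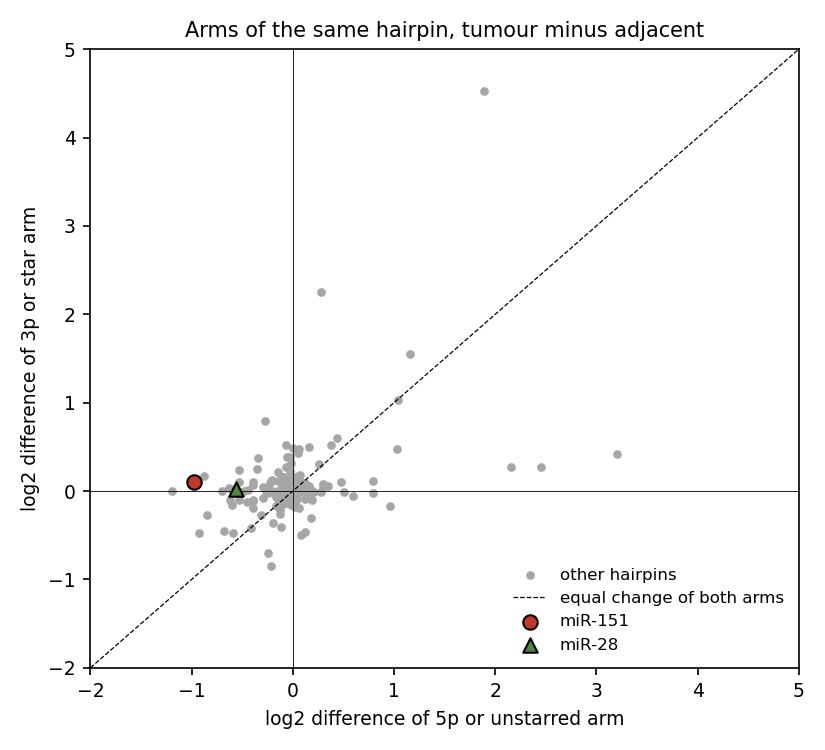
Log2 difference, tumour minus adjacent, of the 3p or star arm (vertical axis) against that of the 5p or unstarred arm (horizontal axis) for 159 hairpins, with a point per hairpin and a dashed line where both arms changed equally. miR-151 lies at -0.98 for its 5p arm and 0.11 for its 3p arm, left of the line, and miR-28 lies at -0.56 and 0.02.

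Of the related hairpins, miR-28 had a bright 5p arm that was lower in tumours and a dim 3p arm, while both arms of miR-708 were dim. The 5p arm of miR-28, whose sequence is given above, was at 6.45, 7.24 and 7.20 in tumours 1293, 1309 and 1316, against 7.49, 7.56 and 7.53 in adjacent liver. As with miR-151-5p, every tumour was below every adjacent piece and tumour 1293 was the lowest. Its difference of -0.56 ± 0.22 (SE; limma adjusted p = 0.23) compares with -0.98 for miR-151-5p. The other arm, miR-28*, was dim, with means of 6.18 ± 0.02 in tumours and 6.16 ± 0.04 in adjacent liver (SD, n = 3 each). The arm balance of miR-28 changed by 0.59 ± 0.22 (SE; limma adjusted p = 0.25), in the same direction as that of miR-151. The rows of miR-708, which shares the seed of miR-28, had differences of 0.01 ± 0.06 for miR-708 and 0.00 ± 0.08 for miR-708* (SE; limma adjusted p = 0.96 and 0.99). Of these 4 rows 0 were called, and their median difference was 0.00.

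The profiles closest to that of the 5p arm were sought among the 346 other microRNAs brighter than the median over the 6 arrays, by Pearson correlation, as a description over 6 arrays that share the split into tumours and adjacent pieces and the low values of tumour 1293. The closest was miR-101a (r = 0.999), a microRNA of hepatocytes described as a suppressor of tumour growth, followed by miR-378* (0.995), hosted by the metabolic regulator gene Ppargc1b, and miR-30d (0.994). The sequence of the closest, from RefSeq (GRCm38.p6, minus strand), is shown with its seed in capitals.
miR-101a-3p (row miR-101a): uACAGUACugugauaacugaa
Its level was 6.69, 8.24 and 7.68 in tumours 1293, 1309 and 1316, against 8.65, 8.78 and 8.74 in adjacent liver, so that its order over the 6 arrays was that of miR-151-5p. The difference was -0.45 for miR-378* and -0.70 for miR-30d. Such likeness was frequent, since 105 of the 346 had r above 0.9, and miR-28 ranked 41 of the 346 (r = 0.978). Over the 4 arrays without pair 1293, miR-101a ranked 10, miR-378* 17 and miR-30d 49. For the dim 3p arm the closest of 347 were miR-202-5p (r = 0.970), miR-433* (0.933) and miR-302a (0.930), which all were highest in tumour 1293. Without pair 1293 they ranked 11 (r = 0.946), 36 (0.832) and 2 (0.994).

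**Figure D5:**
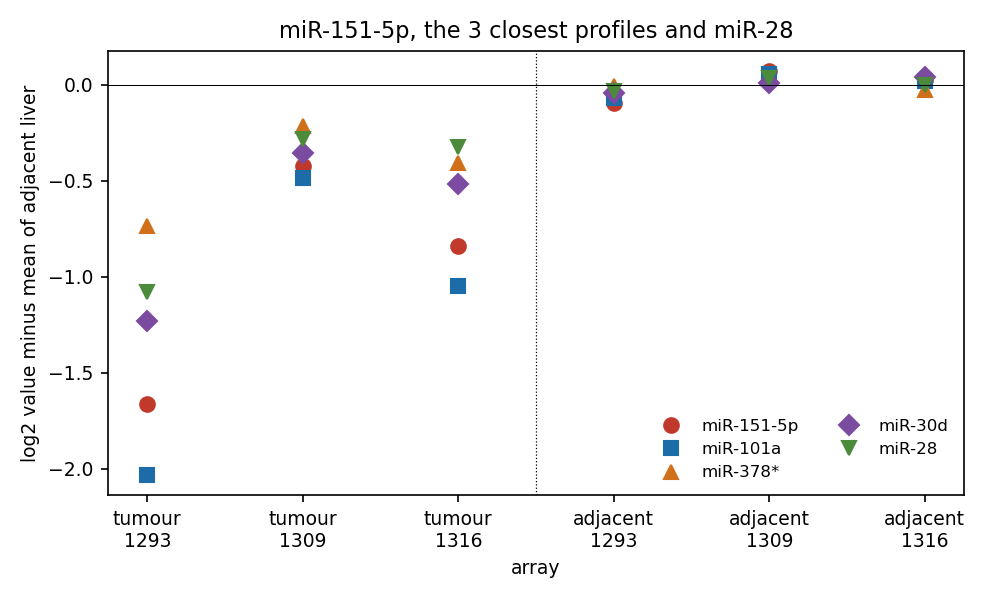
Log2 value minus the mean of adjacent liver (vertical axis) on each of the 6 arrays (horizontal axis) for miR-151-5p, the 3 microRNAs with the closest profiles and miR-28. All 5 lie lowest in tumour 1293, and in the adjacent pieces they lie close to 0.

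Lists of other microRNAs place the 5p arm among its kind. Of 56 rows from 38 microRNAs that, like miR-151, lie in protein-coding host genes, 41 had a lower mean in tumours and 15 a higher one. Counts of lower means in this list and the next are to be read against 59.6% of all microRNAs and 75.9% of the 174 brightest. Limma called 0 of the 56 rows (16 lower and 0 higher at an unadjusted p below 0.05, beside 98 and 41 of all 695). Their median difference was -0.13, against -0.03 over all microRNAs, -0.29 over the 174 brightest and -0.98 for the 5p arm. The largest differences on this list were those of miR-26a (-1.14) and miR-26b (-0.88), hosted by genes of the Ctdsp phosphatase family. Of 19 rows from 14 microRNAs often described as raised in human liver cancer, 11 had a lower and 8 a higher mean, with a median of -0.02. Limma called 1 of these 19 rows, as higher, where it called 2.59% of all microRNAs as higher. It was miR-92a, a microRNA of the miR-17 cluster, and it rose by 0.40 ± 0.07 (SE; limma adjusted p = 0.042). That call ended with the replicate block (limma adjusted p = 0.14) and without any 1 of the adjacent arrays. The other unstarred rows of that cluster were not called. They were miR-17 (0.04), miR-18a (0.05), miR-19a (-0.21), miR-19b (0.13) and miR-20a (0.28).

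Lists of cell type markers are given beside the 5p arm, and the counts of rows with a lower mean are to be read against 59.6% over all microRNAs. Among the 174 brightest the share was 75.9%. At an unadjusted p below 0.05, limma had 98 of all 695 microRNAs lower and 41 higher. Of 10 rows from 7 hepatocyte microRNAs, 9 had a lower mean in tumours and 0 were called (5 lower and 0 higher at an unadjusted p below 0.05), with a median difference of -0.57. The mean level of this list ran from 8.44 to 8.89 in tumours and from 9.08 to 9.10 in adjacent liver. Its largest differences were those of miR-101a (-1.19) and miR-455 (-0.85), and its row with a higher mean in tumours was miR-101a* (0.006). The bright hepatocyte microRNA miR-122 differed little, with means of 14.69 in tumours and 14.80 in adjacent liver (-0.11, limma adjusted p = 0.66). The stromal list (miR-199, miR-214, miR-143 and miR-145, of fibroblasts, stellate and smooth muscle cells) had means of 6.67 to 6.75 in tumours and 6.93 to 7.03 in adjacent liver, with 5 of 8 rows lower and 0 called. Its largest differences were those of miR-199a-3p (-0.85) and miR-143 (-0.58). The rows with a higher mean in tumours were miR-145 (0.07), miR-145* (0.03) and miR-214* (0.10).

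The biliary and other epithelial list of the miR-200 family had means of 6.31 to 6.48 in tumours and 6.59 to 6.67 in adjacent liver, with 6 of 9 rows lower. Limma called 2 of these 9 rows, both as lower, where it called 0.288% of all microRNAs as lower. They were miR-200a, which fell by 0.63 ± 0.11 on the log2 scale, and miR-200b, by 0.57 ± 0.10 (SE; limma adjusted p = 0.042 each). Both calls ended with the replicate block (limma adjusted p = 0.15 each) and without any 1 of the adjacent arrays. The rows of this list with a higher mean in tumours were miR-200a* (0.03), miR-200b* (0.02) and miR-200c* (0.005). Among the lower rows that were not called, miR-200c and miR-141 were each at -0.16. The leukocyte list ran from 6.70 to 7.14 in tumours and from 7.08 to 7.23 in adjacent liver, with 4 of 7 rows lower and 0 called. In it, miR-146a (-0.59) and miR-223 (-0.45) differed most, while miR-150 (0.18), miR-150* (0.01) and miR-155 (0.00) were not lower. The ranges were 8.28 to 8.64 in tumours and 8.67 to 8.73 in adjacent liver for the 2 endothelial rows, miR-126-3p (-0.12) and miR-126-5p (-0.39). For the 2 erythroid rows, miR-144 (-0.46) and miR-451 (-0.16), they were 7.75 to 8.47 in tumours and 8.14 to 8.80 in adjacent liver. No row is at 0 on this scale, whose lowest value was 5.83. The part of these cell types in the difference of the 5p arm was not tested.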

How the data were processed

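Total RNA was labelled with cyanine 3-pCp and hybridised to 1-colour Agilent microRNA arrays, per the labels' protocols. The deposited values are log2 values from RMA (background correction, quantile normalization, summarisation), a tool listed with limma, and no version, in the submitters' processing notes. The log base is an assumption, 2 being what RMA returns. The table had 695 rows, 0 missing values and 0 identical arrays. Scanner files were not analysed here, and the number of arrays limits the precision.

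All rows were fitted with limma 3.58.1 (R 4.3.3; lmFit and eBayes), two-sided, without a block, at a Benjamini-Hochberg adjusted p of 0.05, and arm differences likewise over 159 hairpins. The members and lists were chosen with earlier results of these data known. Named besides the members were the rows of miR-28 and miR-708, the 3 closest profiles to each arm, the hairpins next to miR-151 in arm balance and, for other lists, up to 4 called rows or the 2 largest differences. Each adjacent piece is labelled by the tumour it lay beside, so pairs were taken as tissue of 1 animal, although the third tumour carries 2 numbers. Deviations from group means correlated at -0.05, 0.07 and -0.003 within pairs. P-values measure the spread between these pieces, and a tumour and its adjacent piece share a mouse number. On 50 simulated sets of 695 rows, 89.1% of changes of 1 on the log2 scale were recovered and 0.409% of unchanged rows were called. These shares describe the simulated rows alone, in which tumours and adjacent pieces were drawn with the same spread. The chance of a call for a row with a wide spread among tumours, such as the brighter arm of miR-151, was not tested. Alternatives covered the block, normalization, filtering, moderation, weights and leaving out arrays or pairs. The comparison with the 174 brightest microRNAs and the profiles without pair 1293 were added after seeing the data. Figures used matplotlib 3.10.9.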

Additional observations from a re-analysis of the deposited data

How the results depend on the processing

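The difference of miR-151-5p was negative under all 17 alternatives, and 4 of them made it a limma call. It was -0.69 with array weights (adjusted p = 0.0086) and -0.72 with weights and the replicate block (0.038), and leaving out 1 array gave -1.25 to -0.63, with calls without tumour 1293 or 1309. The adjusted p ranged from 0.0086 to 0.60. The arm balance was positive under all 17 and a call under the same 4 settings, at 0.72 with weights, 0.82 with weights and the replicate block, and 0.68 to 1.42 with 1 array left out. The cause was not tested. miR-151-3p was positive, at 0.05 to 0.17, and not called (adjusted p 0.27 to 0.76) under the 16 alternatives that kept it, since the filter on dim microRNAs removed it. The replicate block changed neither arm's call nor that of the arm balance.

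The number of microRNAs called, 20 with all arrays, was 12 with the replicate block, 138 with array weights, 73 with weights and the replicate block, 56 without pair 1293, 9 without pair 1316, and 10 to 136 with 1 array left out. The 3p row lies near the lower end of the scale, so signal over background limits what it can show, and quantile normalization within RMA may narrow differences.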
